A study of Mus musculus with 12 samples.

Results

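This account covers 8 noncoding RNA genes in mouse liver: 6 small nucleolar RNA (snoRNA) host genes, Gas5, Snhg1, Snhg8, Snhg9, Snhg12 and Snhg15, and 2 long nuclear RNAs, Neat1 and Malat1. They were found by their gene symbols, 1 row for each, among 55903 genes of the deposited table. The genes were chosen from earlier results of these data, in which the differences of Snhg15 between aged/doxo and young control liver and of Snhg9 between treated and aged/doxo liver, and the level of Neat1 in a single aged/doxo library, had stood out. Their levels and differences are therefore given as descriptions, and nothing is read from the p of a member's difference.

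The study, on light-activated removal of senescent cells, sequenced RNA of 12 liver libraries from mice in 3 groups of 4. The first group was young control mice. The second, called aged/doxo here, is titled and annotated as aged but described as doxo, and the labels do not settle whether age, doxo (read as doxorubicin, a DNA-damaging drug) or both set it apart from the young group. The remaining group received the coded compound KSL0608-Se and is described as doxo too, so it shares doxo with the second group. The labels used here give no strain, sex, age, dose or timing. Libraries of a group are numbered replicates with no statement on animals, so the spread between them may be technical.

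A snoRNA host gene is transcribed as a long precursor whose introns hold snoRNAs, the guides that direct chemical modification of ribosomal and spliceosomal RNA. C/D box snoRNAs guide methylation of ribose and H/ACA box snoRNAs guide conversion of uridine to pseudouridine, while the spliced exons that are left over make the long noncoding RNA. Several hosts, Gas5 among them, begin with a run of pyrimidines like that of ribosomal protein mRNAs, and many spliced host RNAs are degraded by nonsense-mediated decay. Neat1 is the scaffold of paraspeckles, nuclear bodies that hold RNA-binding proteins and certain RNAs. Malat1 is kept in nuclear speckles, which store splicing factors, and its 3' end is cut by RNase P.

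By GENCODE M21 on GRCm38 none of the 8 is annotated as protein-coding. Gas5 lies at chr1:161034422-161038539 on the plus strand (25 annotated transcripts, up to 12 exons), Snhg8 at chr3:123507552-123508404 on the minus strand, Snhg12 at chr4:132308623-132311024 on the plus strand, Snhg15 at chr11:6525591-6528760 on the minus strand and Snhg9 at chr17:24719531-24719965 on the minus strand. On chromosome 19 lie 3 members: Malat1 at chr19:5795690-5802672 and Neat1 at chr19:5824708-5845478, both on the minus strand and 22035 bases apart, and Snhg1 at chr19:8723475-8726443 on the plus strand. Snhg9 is annotated as antisense: 14 of its 183 exonic bases also lie in exons of Rps2, the gene of a small-subunit ribosomal protein, on the opposite strand. Gas5 overlaps Zbtb37 on the opposite strand without sharing exonic bases. Malat1 shares 453 of 6983 exonic bases with Gm37376 (mean of 0.446 TPM). No source used here states whether the libraries kept strand, so reads from such shared bases cannot be told apart.

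The 6 hosts hold 26 annotated snoRNA entries at 24 separate positions on their own strand, and each entry falls in an intron of at least 1 transcript. Gas5 holds 10 entries, Snhg1 8, Snhg12 5, and Snhg8, Snhg9 and Snhg15 1 each. Neat1 and Malat1 hold none. The following 3 snoRNAs are shown to make plain what the introns carry, as DNA letters from GENCODE M21 read 5' to 3'. Capitals mark the C box (TGATGA) and D box (CTGA) of the C/D snoRNAs and the ACA near the 3' end of the H/ACA snoRNA, each searched on the snoRNA strand only.
Snord47, in Gas5: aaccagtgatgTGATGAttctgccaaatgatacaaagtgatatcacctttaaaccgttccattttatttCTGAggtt
Snord99, in Snhg12: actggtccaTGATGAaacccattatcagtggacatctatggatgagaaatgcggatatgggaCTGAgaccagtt
Snora9, in Snhg15: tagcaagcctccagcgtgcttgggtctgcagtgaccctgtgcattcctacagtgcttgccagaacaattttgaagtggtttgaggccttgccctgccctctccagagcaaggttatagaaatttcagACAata

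The search found both C/D boxes in 8 entries of Gas5, 5 of Snhg1 and 1 of Snhg12, and the ACA tail in 3 entries of Snhg12 and in the single entries of Snhg8, Snhg9 and Snhg15. Mature snoRNAs themselves were hardly measured: 24 of the 26 entries are listed at 0 in all 12 libraries. Snord22, in Snhg1, and Snora44, in Snhg12, are above 0 in 1 library each (18.4 and 21.9 TPM). Of all 141 genes with a Snord or Snora symbol, 126 are at 0 throughout. The values below are those of the hosts, and levels of snoRNAs were not compared.

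Transcription start windows were taken from RefSeq on GRCm38.p6, where 7 of the 8 symbols matched (Gas5 with 2 start sites). They are shown because the pyrimidine start is a known shared feature of hosts that the choice of members did not use. Each runs from 40 bases before the annotated start to 49 after the first transcribed base, 5' to 3' on the gene's strand. Capitals mark the longest unbroken run of C and T within the 15 bases from 5 before the start to 10 into the transcript.
Gas5, second site, chr1:161035126-161035215, plus strand: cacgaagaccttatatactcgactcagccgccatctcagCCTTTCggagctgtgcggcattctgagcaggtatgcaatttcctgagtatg
Snhg1, chr19:8723447-8723536, plus strand: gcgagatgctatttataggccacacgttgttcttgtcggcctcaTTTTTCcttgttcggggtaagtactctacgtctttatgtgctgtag
Snhg8, chr3:123508287-123508376, minus strand: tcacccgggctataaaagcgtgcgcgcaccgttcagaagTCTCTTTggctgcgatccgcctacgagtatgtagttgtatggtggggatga
Snhg12, chr4:132308638-132308727, plus strand: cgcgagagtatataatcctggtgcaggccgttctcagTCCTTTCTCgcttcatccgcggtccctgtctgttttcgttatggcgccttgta
Snhg9, chr17:24719916-24720005, minus strand: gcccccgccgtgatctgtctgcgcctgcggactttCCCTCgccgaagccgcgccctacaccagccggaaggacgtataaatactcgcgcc
Snhg15, chr11:6528711-6528800, minus strand: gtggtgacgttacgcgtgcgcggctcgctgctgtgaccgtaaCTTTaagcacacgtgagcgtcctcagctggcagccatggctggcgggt
Malat1, chr19:5802623-5802712, minus strand: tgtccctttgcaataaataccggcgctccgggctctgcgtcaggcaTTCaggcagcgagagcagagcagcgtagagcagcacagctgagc

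Snhg12 had a run of 9 pyrimidines across its start and Snhg8 one of 7. The second Gas5 site and Snhg1 had runs of 6 and Snhg9 one of 5. Snhg15 had one of 4, and Malat1 and the first Gas5 site had runs of 3. Only letters within the 15 bases were counted, here and in the shares below. The runs of Snhg1 and Snhg9 continue beyond those bases. A run need not include the start: that of Snhg9 lies before it and that of Snhg1 begins at base 5 of the transcript. A run of at least 7 was found at 2 of the 7 start sites of member hosts, at 7.45% of all 32851 start sites in the table, at 32.9% of 76 sites of cytosolic ribosomal protein genes and at 17.4% of 23 sites of the other snoRNA hosts. Most ribosomal protein sites thus lacked such a run, so a shorter run does not show that a pyrimidine start is absent. The TATA box letters TATAAA, searched on the gene's strand between 40 and 15 bases before the start, were found for Snhg8 among the members and at 1.99% of all sites. These are matches of letters in the windows shown.

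All values are TPM (transcript abundance scaled by gene length and to a fixed total in each library). The table lists 1 length per gene, such as 183 bases for Snhg9 and 20771 for Neat1. How RNA was selected for the libraries is not described here. Ranks between genes are therefore those of the listed values and may differ from true abundance. TPM keeps no read depth and the depth is unknown. Liver identity was clear: the 8 hepatocyte markers were all detected and summed to between 42058 and 76512 TPM. Young control library 1 and aged/doxo library 2 stood apart from the rest. They had 9568 and 9741 genes at 1 TPM or more against 10263 to 11023 in the other libraries. Their fall of expression with gene length was the steepest (slopes of log2(TPM + 1) on log2 length of -0.472 and -0.473). Aged/doxo library 4 was close to them in this measure, at -0.449. The mitochondrial share of TPM was 27.6% and 12.4% in the aged/doxo and the young control library of this pair, and 8.10% to 11.9% in the other 10. Results are given with and without these libraries. Among other cell types, the 6 Kupffer cell markers summed to 84.5 to 139.9 TPM in young control, 34.0 to 224.0 in aged/doxo and 88.0 to 140.4 in treated libraries, with the lowest sum in aged/doxo library 2. The 5 muscle genes, with Myh4 at 0 throughout, summed to 0.26 to 4.86, 0.90 to 9.81 and 0.43 to 0.69 TPM, highest in young control library 1 and aged/doxo library 2 of their groups. The 5 erythroid markers summed to 836.3 to 1991 TPM in young control, 1839 to 2568 in aged/doxo and 846.4 to 1777 in treated libraries. The 5 lymphocyte markers, of which 3 reached 1 TPM in any library, summed to 1.19 to 3.64, 2.40 to 4.64 and 1.71 to 2.13 TPM. The erythroid, lymphocyte and muscle sums were thus higher in every aged/doxo library than in every treated library, the direction of the Snhg15, Neat1 and Malat1 means. The part of these differences in the results below was not tested. In tissue, fewer cells of a type and less RNA per cell cannot be told apart.

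By TPM, Gas5 was the most abundant of the 8 RNAs, with a mean of 114.1 ± 23.9 TPM (SD, n = 12), rank 778 of the 10883 genes that averaged at least 1 TPM. Snhg8 followed at 51.6 ± 9.05 TPM and was below Gas5 in 12 of 12 libraries. Neat1 came next by its mean of 21.8 TPM, but its SD of 22.0 TPM was as large and its median was 13.0 TPM. Snhg12 stood at 9.15 ± 2.06, Malat1 at 6.62 ± 5.31, Snhg1 at 6.61 ± 1.37 and Snhg15 at 3.08 ± 1.23 TPM. Snhg9 ranged from 0 to 13.5 TPM with a median of 4.88 TPM. Lower in the order, neighbours were not separated in every library: Neat1 exceeded Snhg12 in 10 of 12 libraries, Snhg12 exceeded Malat1 in 10 and Malat1 exceeded Snhg1 in only 2, although their means are nearly equal. All 8 passed the filter of a mean of 1 TPM. The hosts summed to 146.0 to 225.9 TPM, of which Gas5 alone made up 46.9% to 66.2%.

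The other hosts span a wider range. The list held 25 genes, 24 were found in the table and 20 averaged at least 1 TPM. Protein-coding hosts led it, with means of 1509 TPM for Rpl13a, 1141 for Tpt1 and 1115 for Rps2. Among the noncoding hosts on that list Snhg6 averaged 19.7, Zfas1 11.1 and Snhg3 10.1 TPM, all below Gas5 and Snhg8.

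**Figure D1:**
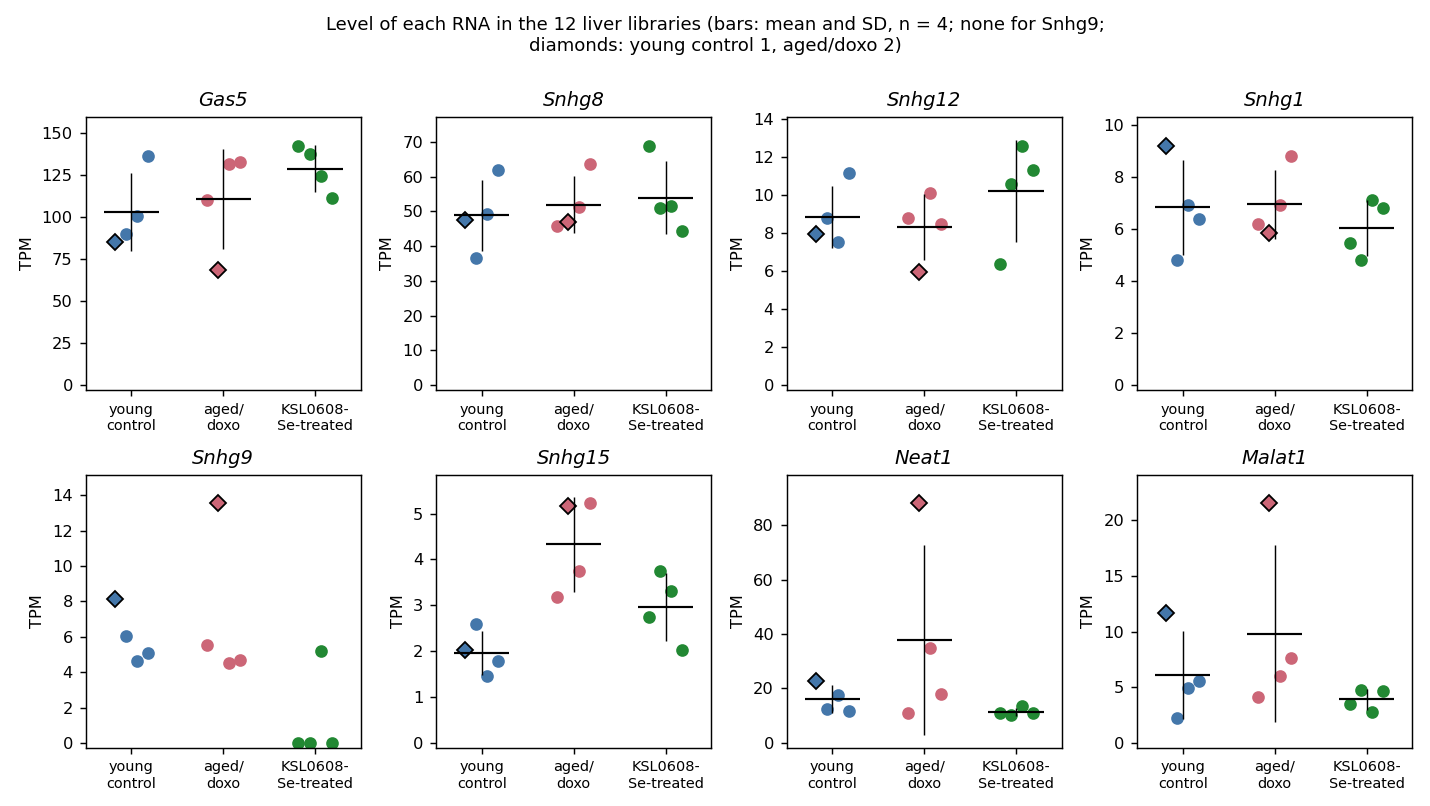
TPM of each of the 8 RNAs (vertical axes, 1 scale per gene) in the 4 libraries of young control, aged/doxo and KSL0608-Se-treated liver, with the group mean and SD except for Snhg9; diamonds mark young control library 1 and aged/doxo library 2. Snhg15 is the 1 RNA whose young control libraries (up to 2.59 TPM) all lie below its aged/doxo libraries (from 3.18 TPM), and Neat1 and Malat1 are highest in aged/doxo library 2.

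Gas5 is known for accumulating in growth-arrested cells and for binding the glucocorticoid receptor. It stood at 84.97, 89.98, 100.8 and 136.3 TPM in the young control libraries 1 to 4. In aged/doxo libraries 1 to 4 it stood at 110.3, 68.5, 131.2 and 132.9 TPM. In treated libraries 1 to 4 it stood at 142.4, 137.3, 124.1 and 111.1 TPM. The groups overlap, and the 2 lowest values of all 12 belong to the libraries that stood apart. The group means were 103.0 ± 23.1, 110.7 ± 30.0 and 128.7 ± 14.1 TPM (SD, n = 4). On the log2(TPM + 1) scale Gas5 differed by 0.08 ± 0.24 (SE) between aged/doxo and young control and by 0.26 ± 0.24 between treated and aged/doxo liver. Without the libraries that stood apart these were 0.21 ± 0.16 and 0.04 ± 0.15, and the first was 0.29 without aged/doxo library 2 alone.

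Snhg8, the host of Snora24, varied little. It ranged from 36.8 to 61.8 TPM in young control, from 45.8 to 63.6 TPM in aged/doxo and from 44.3 to 69.0 TPM in treated liver, with means of 48.9, 52.0 and 54.0 TPM. All 3 groups overlap. Its difference was 0.10 ± 0.21 between aged/doxo and young control (95% interval -0.36 to 0.56) and 0.05 ± 0.21 between treated and aged/doxo liver (-0.41 to 0.51). Without the libraries that stood apart these were 0.14 ± 0.22 and 0.00 ± 0.20.

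Snhg12 and Snhg1 each carry several snoRNAs and were close to each other in level. Snhg12 stood at 7.56 to 11.2 TPM in young control, 5.97 to 10.1 in aged/doxo and 6.37 to 12.6 in treated libraries. Snhg1 stood at 4.80 to 9.20, 5.85 to 8.82 and 4.81 to 7.10 TPM. Neither separated the groups. The ratio of Snhg12 to Snhg1, which does not depend on how a library is scaled, ranged from 0.865 to 2.20 over the libraries, with group means of 1.39 ± 0.482, 1.22 ± 0.260 and 1.70 ± 0.425. Differences of Snhg12 were -0.09 ± 0.23 for aged/doxo against young control and 0.25 ± 0.23 for treated against aged/doxo, and those of Snhg1 were 0.04 ± 0.21 and -0.17 ± 0.21. Without the libraries that stood apart Snhg12 had 0.01 ± 0.23 and 0.11 ± 0.21, and Snhg1 had 0.24 ± 0.19 and -0.24 ± 0.18. After median-of-ratios scaling the treated against aged/doxo differences of Gas5, Snhg8 and Snhg12 had the opposite sign, at -0.12, -0.33 and -0.09, so no direction is given for the hosts as a group.

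Snhg15, the host of Snora9, is one of the genes for which the set was chosen. It stood at 2.03, 2.59, 1.45 and 1.78 TPM in the young control libraries. In the aged/doxo libraries it stood at 3.18, 5.16, 3.74 and 5.22 TPM, and in the treated libraries at 2.75, 3.74, 3.32 and 2.02 TPM. Every aged/doxo library was above every young control library, while the treated libraries overlap both groups. Group means were 1.96 ± 0.481, 4.33 ± 1.02 and 2.96 ± 0.745 TPM (SD, n = 4). The gene was chosen for its aged/doxo against young control difference, so the interval of that difference is a description only. The log2 difference was 0.84 ± 0.21 for aged/doxo against young control (95% interval 0.39 to 1.28), -0.43 ± 0.21 for treated against aged/doxo and 0.41 ± 0.21 for treated against young control. Without the libraries that stood apart these were 0.78, -0.35 and 0.43. Treated against aged/doxo and aged/doxo against young control share the aged/doxo libraries, so the opposite signs were not observed independently.

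Snhg9, the host of Snora78, is the other host for which the set was chosen. It is listed at 0 in treated libraries 1, 2 and 4 and at 5.22 TPM in treated library 3. Young control libraries held 8.16, 6.03, 4.64 and 5.06 TPM, and aged/doxo libraries held 5.52, 13.5, 4.51 and 4.70 TPM. The treated group overlaps both others through library 3, and the highest value of all is that of aged/doxo library 2. The log2 differences were -2.23 ± 0.53 for treated against aged/doxo and -2.12 ± 0.53 for treated against young control, with 0.11 ± 0.53 for aged/doxo against young control. These sizes depend on the pseudocount, which with a value of 0.01 gave -7.05 and -6.93 for the differences with treated liver, so they are no measure of fold. Without treated library 3 they were -2.89 and -2.78, and without the libraries that stood apart -1.90 ± 0.58 and -1.98 ± 0.58. The difference of aged/doxo against young control turned to -0.08 ± 0.62 without those libraries and to -0.22 without aged/doxo library 2 alone.

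A listed 0 was common for genes as short as Snhg9, whose length in the table is 183 bases. Of 79 genes of at most 200 bases that averaged 2 to under 10 TPM, 75 (94.9%) were at 0 in 3 or more of the 12 libraries. The share was 34.6% of 104 genes of over 200 and up to 400 bases, 5.26% of 304 genes of up to 1000 bases and 0.188% of 4262 longer genes. The part of gene length in the 3 zeros of Snhg9 was not tested. Rps2, on the opposite strand, averaged 1148 ± 214 TPM in young control, 987.3 ± 273.4 in aged/doxo and 1210 ± 80.6 in treated liver. Its mean was highest in treated liver, within the spread of the libraries.

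Neat1, also a gene for which the set was chosen, is listed with a length of 20771 bases, that of the whole annotated gene. It is known to have a short and a long isoform, of which the long one builds paraspeckles, and the table gives 1 value for the gene. Young control libraries held 22.6, 12.5, 17.7 and 11.7 TPM. Aged/doxo libraries held 10.9, 88.0, 34.9 and 17.9 TPM. Treated libraries held 11.04, 10.4, 13.5 and 10.8 TPM. The treated values lie close together (SD 1.38 TPM around 11.4), and the aged/doxo values span an 8.08-fold range that includes the level of the treated group at its lower end. The log2 differences were 0.81 ± 0.48 for aged/doxo against young control, -1.23 ± 0.48 for treated against aged/doxo and -0.42 ± 0.48 for treated against young control. Without the libraries that stood apart they were 0.44 ± 0.34, -0.70 ± 0.32 and -0.25 ± 0.32. Leaving out aged/doxo library 2 alone gave 0.27 and -0.70 for the first pair.

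Malat1, the neighbour of Neat1, was highest in aged/doxo library 2 and next highest in young control library 1. It stood at 11.7, 2.24, 4.96 and 5.60 TPM in young control libraries, at 4.12, 21.5, 5.99 and 7.66 TPM in aged/doxo libraries and at 3.53, 4.75, 2.75 and 4.66 TPM in treated libraries. The groups overlap. Its log2 differences were 0.53 ± 0.45, -0.91 ± 0.45 and -0.39 ± 0.45 for aged/doxo against young control, treated against aged/doxo and treated against young control. They were 0.43 ± 0.30, -0.48 ± 0.28 and -0.05 ± 0.28 without the libraries that stood apart, and -0.24 for treated against aged/doxo when the slope of level on gene length in each library was added to the fit. The ratio of Neat1 to Malat1 ranged from 1.94 to 5.82 over libraries, with group means of 3.30 ± 1.70, 3.72 ± 1.60 and 3.13 ± 1.25.

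**Figure D2:**
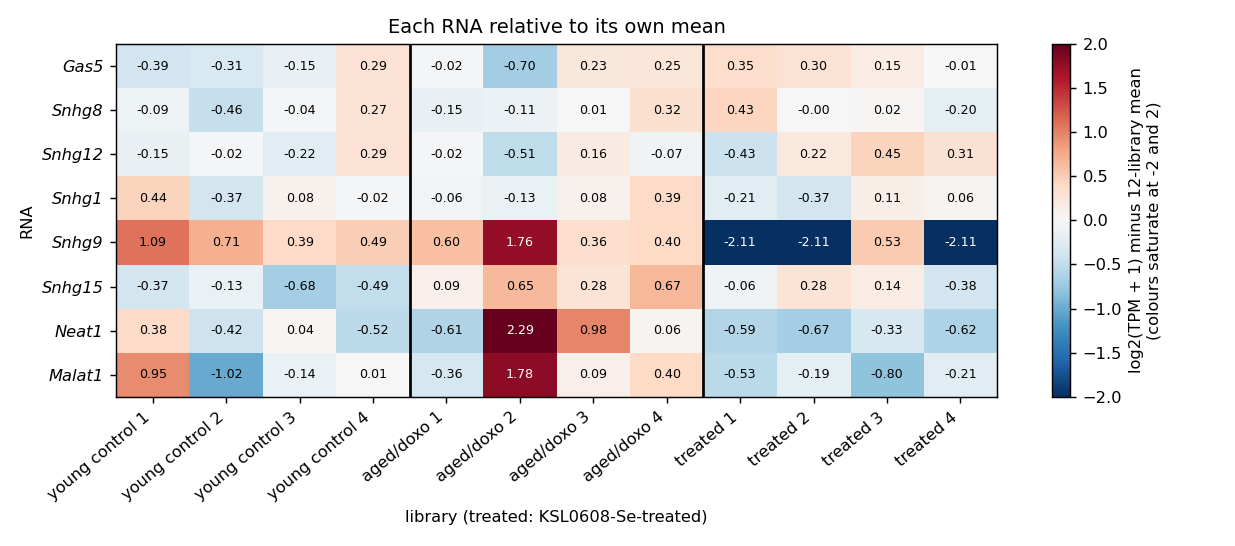
Log2(TPM + 1) of each RNA in each of the 12 libraries (columns) minus the RNA's own 12-library mean (rows; red above, blue below, values printed in the cells). Aged/doxo library 2 holds the highest cell of Neat1, Malat1 and Snhg9 and the lowest of Gas5 and Snhg12.

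The members differed from each other in the 2 libraries that stood apart. Neat1 was chosen for its level in a single aged/doxo library and Snhg9 for its treated against aged/doxo difference. Their values in aged/doxo library 2 are therefore descriptions, from which nothing is read. Relative to the median of the other 10 libraries, Neat1 was 7.27-fold in aged/doxo library 2 and 1.87-fold in young control library 1, Malat1 4.57-fold and 2.48-fold, and Snhg9 2.90-fold and 1.75-fold. Gas5 was at 0.537 and 0.666 of that median and Snhg12 at 0.631 and 0.841, while Snhg8 was at 0.918 and 0.931. The median gene of the 10883 tested was at 0.514 in aged/doxo library 2 and at 0.602 in young control library 1. Malat1 and Snhg9 were above all 10 other libraries in both, as were 160 genes (1.47%). Gas5 was below all 10 in both, as were 6039 genes (55.5%), so the position of Gas5 was that of most genes. Ratios within a library do not depend on scaling: Gas5 over Malat1 was 3.18 in aged/doxo library 2, 7.29 in young control library 1 and between 17.3 and 45.1 in the other 10.

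**Figure D3:**
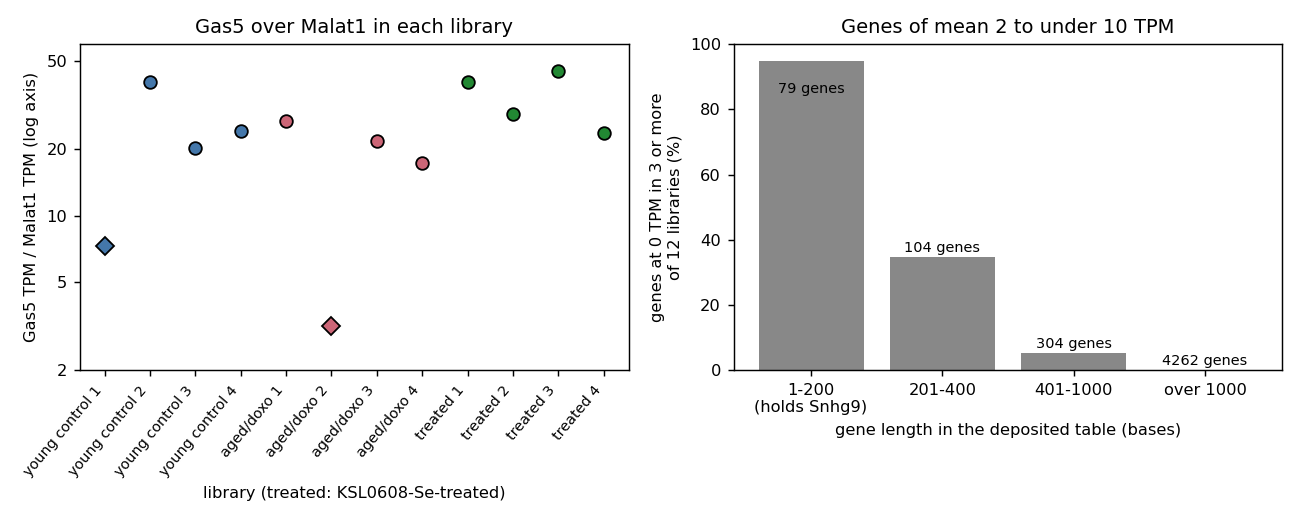
Left, ratio of Gas5 to Malat1 TPM in each library on a log axis: the diamonds, young control library 1 (7.29) and aged/doxo library 2 (3.18), lie below the other 10 (17.3 to 45.1). Right, share of genes averaging 2 to under 10 TPM that are at 0 in 3 or more of 12 libraries, by gene length: 94.9% in the class of at most 200 bases, which holds Snhg9.

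The same libraries were high for some nuclear RNAs outside the set. Of 11 measured genes on the list of other long noncoding RNAs, 2 were above all 10 other libraries in both: Rn7sk, the 7SK RNA that holds the elongation factor P-TEFb inactive (102.1 and 22.9 TPM, against 1.58 to 7.22), and Rpph1, the RNA of RNase P (13.9 and 5.84 TPM). Both are short (331 and 319 bases). Of 20 measured other hosts, 2 were so, Ncl and Snhg16. None of the 17 paraspeckle proteins or 16 nuclear speckle proteins was, and 12 and 7 of these were below all 10 other libraries in both. Of all genes, 1.47% were above and 55.5% below in this way, so nothing is read from the counts of these proteins.

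Across genes, the comparisons were made with limma on log2(TPM + 1) in the 10883 genes that averaged at least 1 TPM. In aged/doxo against young control liver, 0 of 8 members had an adjusted p under 0.05, where 0.00919% of all genes did, and 1 member, Snhg15, had an unadjusted p under 0.05, as did 1.98% of all genes. Snhg15 was also the single member whose groups did not overlap, as was the case for 1.00% of all genes. The median difference of the members was 0.10 and that of all genes -0.08, and 7 of 8 members were above 0.

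In treated against aged/doxo liver, 0 of 8 members passed with limma's adjusted p, against 0.00919% of all genes. Snhg9 and Neat1 had an unadjusted p under 0.05, as did 4.77% of all genes. No member's groups failed to overlap, against 3.13% of all genes. The median of the members was -0.30 and that of all genes 0.30. The median of all genes was 0.13 without the libraries that stood apart. In treated against young control liver, 0 of 8 members passed, against 0.0276% of all genes, Snhg9 alone had an unadjusted p under 0.05, as did 3.40% of all genes, and no member's groups were separate, against 4.02% of all genes. Medians were 0.00 for the members and 0.23 for all genes. These contrasts chose members, so nothing is read from these counts.

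**Figure D4:**
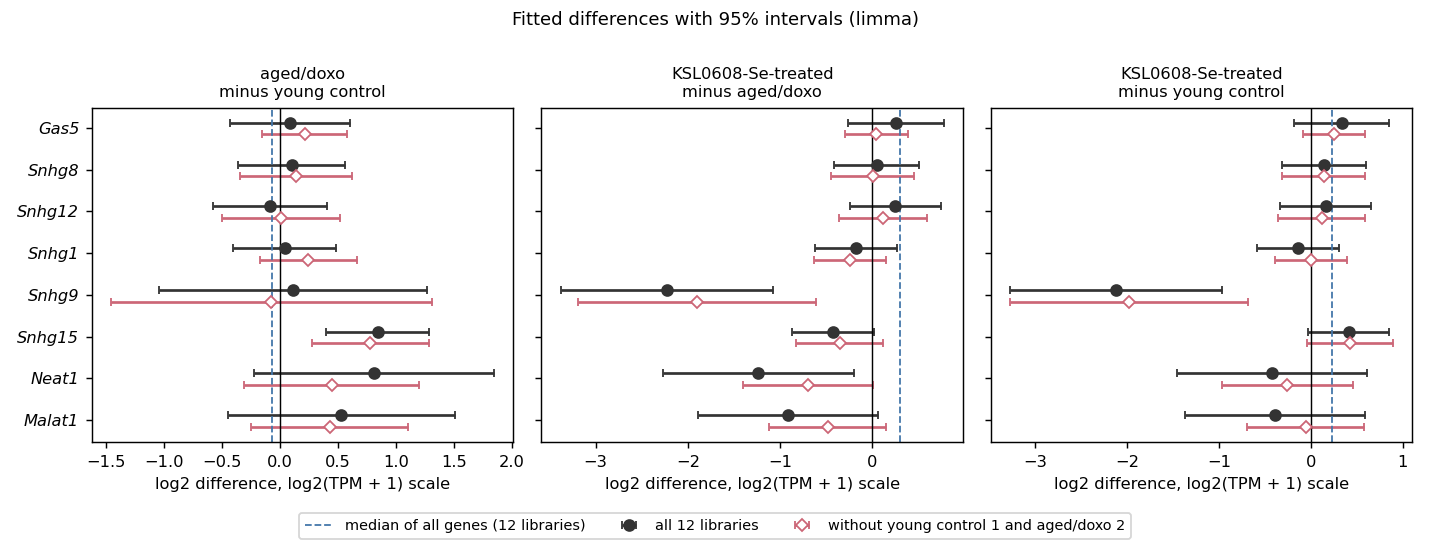
Fitted log2 differences (horizontal axis, log2(TPM + 1) scale) of the 8 RNAs in the 3 comparisons with 95% intervals, from all 12 libraries (filled circles) and from the 10 libraries left when the pair that stood apart is removed (open diamonds); the dashed line is the median of all genes. Snhg15 lies at 0.84 in the first comparison and Snhg9 at -2.23 and -2.12 in the others, and the Neat1 difference of -1.23 shrinks to -0.70 without those libraries. Snhg15, Snhg9 and Neat1 were chosen from these data, so their intervals are descriptions only.

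Other hosts and partner proteins were examined next. With limma, 1.98% of all genes had an unadjusted p under 0.05 in aged/doxo against young control liver. The share was 4.77% in treated against aged/doxo and 3.40% in treated against young control liver. None of the 20 measured other hosts passed with limma's adjusted p in any comparison. In aged/doxo against young control liver 1 of them, Snhg3, had an unadjusted p under 0.05 (7.98 ± 1.61 TPM in young control and 12.7 ± 4.199 in aged/doxo, log2 difference 0.57 ± 0.23, limma adjusted p = 1). Snhg11, Zfas1 and Snhg5, the next by p, had differences of 0.84, 0.36 and 0.43, and the list's median was 0.08 against -0.08 for all genes. In treated against aged/doxo liver 0 had an unadjusted p under 0.05. Eif4a2, Nop56, Rps2 and Ncl were first by p, with 0.38, -0.42, 0.34 and -0.36, and the median was 0.00 against 0.30 for all genes. In treated against young control liver Zfas1 had an unadjusted p under 0.05 (8.71 ± 1.08 against 13.1 ± 2.01 TPM, log2 difference 0.53 ± 0.19, limma adjusted p = 0.734).

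Of the 15 measured snoRNP proteins, which include the C/D methyltransferase fibrillarin (Fbl) and the H/ACA pseudouridine synthase dyskerin (Dkc1), 0 had an adjusted or an unadjusted p under 0.05 with limma in any of the 3 comparisons. Their medians were -0.13, 0.35 and 0.15. The same counts of 0 held for the 17 paraspeckle proteins (medians -0.06, 0.31 and 0.26), the 16 nuclear speckle proteins (0.07, 0.07 and 0.25), the 14 nonsense-mediated decay factors (-0.05, 0.26 and 0.20) and the 15 translation genes with pyrimidine starts (-0.08, 0.33 and 0.22). By limma's unadjusted p, 1.98%, 4.77% and 3.40% of all genes were under 0.05. A count of 0 in lists this short therefore does not show that the genes were unchanged. The first by p among paraspeckle proteins in treated against aged/doxo liver was Tardbp, the RNA-binding protein TDP-43, with 0.43 ± 0.22. Nono, a core paraspeckle protein, had 0.64 ± 0.38. In that comparison 16 of the 17 proteins were above 0, where the median of all genes was 0.30 and Neat1 was at -1.23.

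Among 11 measured other long noncoding RNAs 0 passed with limma's adjusted p in any comparison. Rpph1 had an unadjusted p under 0.05 in treated against aged/doxo liver, as did 4.77% of all genes. It stood at 3.02, 13.9, 4.47 and 4.54 TPM in aged/doxo libraries and at 0.44, 0.62, 1.69 and 0.57 TPM in treated libraries. These groups do not overlap, as was the case for 3.13% of all genes (log2 difference of Rpph1 -1.88 ± 0.54, limma adjusted p = 0.427). Rpph1 was at 5.84, 0, 1.55 and 4.02 TPM in young control libraries, which overlap both. Firre, a nuclear RNA of the X chromosome, had differences of 0.66 ± 0.36 for aged/doxo against young control and -0.61 ± 0.36 for treated against aged/doxo, and stood highest in aged/doxo library 2 at 9.61 TPM.

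Genes adjacent to members, by RefSeq, were also examined. Slc3a2, Trnau1ap, Frmd8 and Serpinc1 had neither an adjusted nor an unadjusted p under 0.05 with limma in any of the 3 comparisons. Slc3a2, an amino acid transporter subunit 118 bases from Snhg1, averaged 20.6 TPM and had log2 differences of -0.15, 0.32 and 0.17 in the 3 comparisons. Trnau1ap, 739 bases from Snhg12, averaged 16.2 TPM with -0.08, 0.31 and 0.23. Frmd8, on the far side of Neat1, had -0.18, 0.39 and 0.21, of the opposite sign to Neat1 in all 3 comparisons. The medians of all genes, -0.08, 0.30 and 0.23, had the same signs as Frmd8. Serpinc1, the antithrombin gene next to Gas5 at a distance of 32058 bases, averaged 2544 TPM. Prss12, Rnf151, Rab42 and Myo1g, next to Snhg8, Snhg9, Snhg12 and Snhg15, averaged under 1 TPM.

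Genes alike in pattern were found by the root mean square (RMS) difference, over the 12 libraries, between log2(TPM + 1) values that were each centred on the gene's own mean, among 9729 genes with an established symbol. Libraries and their scaling are shared by all genes. Gas5 (SD 0.31 over libraries) was nearest to Nqo2, Borcs7 and Tsr2, with RMS differences of 0.10, 0.11 and 0.11. Snhg8 (SD 0.23) was nearest to Coa6, Mrps16 and Lamtor4 at 0.09, 0.10 and 0.12. Snhg12 (SD 0.29) was nearest to Mkrn1, Itga1 and Nf1 at 0.13, 0.13 and 0.14, and Snhg1 (SD 0.24) to Ube2u, Tsacc and Sh3bgrl at 0.12, 0.15 and 0.16. Snhg15 (SD 0.41) was nearest to Tcf7l2, Aaas and Ctps2 at 0.23, 0.24 and 0.24.

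RMS differences are not scaled to a gene's SD. The nuclear RNAs, with larger SDs, had larger differences to their nearest genes than the hosts other than Snhg9. Malat1 (SD 0.73) was nearest to Clk1, a kinase of splicing factors, at 0.36, and Wdr18 was at 0.37. Neat1 (SD 0.84) was nearest to C4a at 0.46, then Akap8l, a nuclear scaffold protein, and Malat1, both at 0.49. Snhg9 (SD 1.27) was nearest to Amhr2 at 0.72. Within the set the closest pair was Gas5 and Snhg8, at 0.24, followed by Snhg1 and Snhg8 at 0.29 and Snhg12 and Gas5 at 0.30. The pair of Neat1 and Malat1, at 0.49, was closer than either was to any of the 6 hosts (0.68 for Snhg1 and Malat1 to 1.16 for Snhg9 and Malat1). Both were highest in aged/doxo library 2 (88.0 and 21.5 TPM), and Neat1 was chosen for its level in a single aged/doxo library. Likeness without that library was not computed, so no general likeness of the pair is read from this.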

How the data were processed

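Liver RNA was sequenced in 12 libraries, 4 in each of 3 groups taken from the titles. The authors deposited TPM values per gene, rounded to 2 decimals, with a gene length. Per the submitters' processing notes, fastp, HISAT and RSEM were used, with no versions. Settings, build and annotation: not given in the sources used here. Read depth is unknown, so no counting interval was computed. Values were analysed as log2(TPM + 1) in the 10883 genes with a mean of at least 1 TPM. limma 3.58.1 in R 4.3.3 fitted group means to all 12 libraries with a variance trend (two-sided, Benjamini-Hochberg, threshold 0.05). Fold changes on this scale understate those of low genes. The spread behind each p is that among these libraries and may be technical. The fit was tested on simulated data. Members and gene lists were chosen with earlier results of these data known. Named genes were the members, up to 4 genes of smallest p per list and comparison, the nearest genes and the 3 genes most alike; others, such as Snhg6, Ncl and Snhg16, were named after their values were seen. Some genes that the rule names are not reported here. Positions come from GENCODE M21 by gene identifier, and sequences from GENCODE M21 and RefSeq. Alternatives changed the pseudocount, filter, scaling, block, samples and weights. Plots used matplotlib 3.10.9 (Python 3.11.15).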

Additional observations from a re-analysis of the deposited data

Results flagged for a closer look

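Snhg9 met a test for outlying samples (Dixon's ratio of the gap to the range) in 2 of 24 combinations of a member and a group. Aged/doxo library 2, at 13.54 TPM, lay far above the other 3 of its group (ratio 0.888). Treated library 3, at 5.22 TPM, was the only treated library above 0, which makes the ratio 1 whatever its value. Chance flags about 1 in 20 such groups. That rate does not apply to the treated or the aged/doxo Snhg9 values, for whose difference the gene was chosen.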

How the results depend on the processing

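The counts of members with a limma adjusted p under 0.05 stayed at 0 in all 3 comparisons, with the following exceptions. With library weights, Snhg15 passed in aged/doxo against young control (count 1) and Neat1 in treated against aged/doxo liver (count 1). Without treated library 3, Snhg9 passed in both comparisons with treated liver (count 1 in each). That library is the only treated one above 0 for Snhg9, so the fit without it leaves treated values of 0 alone, with no spread. Snhg9, Snhg15 and Neat1 were chosen from these data, so nothing is read from these passes. Without each library, members called ranged from 0 to 0, 0 to 1 and 0 to 1 in the comparisons in the order aged/doxo against young control, treated against aged/doxo and treated against young control, and genes called from 0 to 2, 0 to 1 and 1 to 5. Over all genes the counts in the same order were 1, 1 and 3. They were 2, 1 and 3 with a pseudocount of 0.1, 2, 0 and 3 with 0.01, 0, 0 and 1 with no filter, 3, 0 and 2 with median-of-ratios scaling, 2, 0 and 2 with quantile normalization, 3, 0 and 5 with totals lacking the 50 most abundant and the mitochondrial genes, 0, 2 and 1 with the compared groups alone and 74, 77 and 29 with library weights. Another 2 alternatives were chosen after seeing the data: leaving out young control library 1 and aged/doxo library 2 gave 1, 0 and 4, and a length covariate gave 2, 0 and 2. The cause of these shifts was not tested. With the replicate number as a block they were 0, 0 and 1, and no member passed. The numbers share no stated origin: deviations of same-numbered libraries correlated from -0.58 to 0.39, over 0.1 in 2 of 12 pairs, and 2 of 12 libraries correlated best with their own number. Of 570 values of member differences under 24 alternatives, 556 moved by less than 1 residual SD and 14 by more, where some alternatives, such as leaving out a library of the group not compared, cannot move a difference. Snhg9 and Snhg15 have no value with a minimum mean of 5 TPM. Depth is unknown, which limits every low value.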
